A study of Homo sapiens with 16 samples.

Results

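The 35 genes described here encode the aminoacyl-tRNA synthetases of the cytosol (19 genes) and of the mitochondrion (16 genes). They were taken as a list of symbols and matched to the Ensembl identifiers of the deposited count tables, which hold 60676 identifiers. Symbols ending in 2 form the mitochondrial set, and all others the cytosolic set. All 35 members were found and all 35 passed the filter on low counts, so none was lost to it. RNA was measured in 2 human melanoma cell lines grown as cultures. A101D is labelled methionine dependent, and MeWo is labelled methionine independent, which means that it grows when homocysteine replaces methionine in the medium. Each line has 8 libraries of total RNA, numbered as replicates 1 to 8. The growth protocol, shared by both lines, describes a base medium with dialyzed serum, cystine, glutamine and pyruvate, to which either methionine or homocysteine was added. No label or column header says which library had which medium, so the libraries of each line are given as replicates 1 to 4 and replicates 5 to 8, named by their numbers alone. Nor do the labels say whether replicates came from separate cultures, and p-values then measure only the spread between these libraries. Each kind of methionine dependence is represented by 1 line, so a difference between the lines cannot be told apart from any other difference between A101D and MeWo.

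Aminoacyl-tRNA synthetases join each amino acid to its transfer RNAs, the step that sets the genetic code at the ribosome. Mitochondria have their own ribosomes and transfer RNAs, and most of their synthetases are encoded by separate nuclear genes and imported. GARS1 and KARS1, the glycyl and lysyl enzymes, serve both compartments from a single gene. Mitochondria charge glutamine without a glutaminyl synthetase, through EARS2 and an amidotransferase. Several cytosolic enzymes sit together in the multisynthetase complex. When amino acids run short, uncharged transfer RNA activates the kinase GCN2, translation of the transcription factor ATF4 rises, and ATF4 is known to bind the genes of several cytosolic synthetases at a composite C/EBP-ATF response element.

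The core of that element, TGATGNAA on either strand, was searched in RefSeq promoters (GRCh38.p14, 250 bases before to 50 after the annotated start). It was present in 5 of the 16 cytosolic members with a promoter in the table (31.25%), in 1 of the 14 mitochondrial members (7.14%) and in 3.62% of all 35116 promoters. LARS1, VARS1, YARS1, AARS2 and VARS2 were not matched. The stretches around the matches are shown because the match was found more often in the cytosolic set, and no count was used to find it. That difference was not tested. They are written along the gene's strand with the match in capitals. The stretches lie at chr16:70289655-70289724 (minus strand) for AARS1, chr7:30594808-30594877 (plus strand) for GARS1, chr9:92293698-92293767 (minus strand) for IARS1, chr12:57488004-57488073 (plus strand) for MARS1, chr18:57621804-57621833 (minus strand) for NARS1 and chr12:32756056-32756125 (minus strand) for YARS2.
AARS1: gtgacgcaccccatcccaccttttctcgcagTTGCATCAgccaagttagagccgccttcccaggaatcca
GARS1: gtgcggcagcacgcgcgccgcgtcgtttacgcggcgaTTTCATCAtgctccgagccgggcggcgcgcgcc
IARS1: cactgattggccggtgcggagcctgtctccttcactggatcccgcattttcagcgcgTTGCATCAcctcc
MARS1: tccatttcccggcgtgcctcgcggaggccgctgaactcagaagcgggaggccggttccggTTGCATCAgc
NARS1: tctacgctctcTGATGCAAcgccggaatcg
YARS2: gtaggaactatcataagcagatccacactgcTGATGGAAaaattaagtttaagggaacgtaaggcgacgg
The match begins 187 bases before the start in AARS1, 33 in GARS1, 13 in IARS1, 4 in MARS1 and 197 in YARS2, and 14 bases after it in NARS1. All 5 cytosolic genes with a match were higher in replicates 5 to 8 of A101D than in replicates 1 to 4, where 33.2% of all genes were called higher and 32.4% lower. Other genes with a match were not compared. Of the other cytosolic genes with a promoter in the table, 6 were higher without a match and 5 were lower without one. YARS2 was lower. A match of these letters is a description and does not show binding.

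On GRCh38 (GENCODE v29), the genes that the results turn on are SARS1 at chr1:109213918-109238169, QARS1 at chr3:49095932-49105135, MARS1 at chr12:57475445-57517569, GARS1 at chr7:30594681-30634033, PARS2 at chr1:54756898-54764514 and MARS2 at chr2:197705369-197708387, and counts cover the exons of each gene. Total counts ran from 28910881 to 38961862 per library. Values are given as CPM, the count per 1e+06 counts, on library sizes scaled by the trimmed mean of M-values (TMM), and comparisons between genes use CPM per kilobase of exon. The smallest count of a member in any library was 51, which carries a counting error of 14.0%. The 7 pigment cell markers gave no single order of the lines. In replicates 1 to 4, MITF (216 against 565 CPM), SOX10 (388 against 462), PMEL (204 against 6596), MLANA (29.5 against 174) and TYR (1.39 against 307) had lower means in A101D than in MeWo, and DCT (1651 against 488) and S100B (681 against 129) higher ones. Between the A101D sets 5 of these 7 were called lower in replicates 5 to 8 (MITF, SOX10, MLANA, DCT, S100B) and PMEL higher, where 65.6% of all genes were called, and none was called between the MeWo sets. The part of this shift in the synthetase differences was not tested. Markers of blood, endothelial, keratinocyte and epithelial cells (PTPRC, PECAM1, KRT5, EPCAM) stayed at or below 0.671 CPM. The replicate sets of A101D also differed beyond the synthetases. Replicates 5 to 8 had more genes with a count (34020 to 34607 against 31281 to 33107) and a larger share of counts from the mitochondrial genome (1.93% to 2.33% against 1.71% to 1.92%), and the part of either in the differences below was not tested. MeWo replicate 2 had more genes with a count (34471) than the other 7 MeWo libraries, and without it 10 cytosolic members were called between the MeWo sets, as with it.

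In A101D the cytosolic synthetases separated strongly between the replicate sets and in both directions. All 19 passed the test between replicates 5 to 8 and 1 to 4 (limma with voom weights, two-sided, adjusted p under 0.05 by Benjamini-Hochberg over 21569 genes), 12 higher and 7 lower in replicates 5 to 8. Among all genes tested, 65.6% passed, 33.2% higher and 32.4% lower. In all 19 the libraries of the sets did not overlap, 12 higher and 7 lower, against 59.6% of all genes (30% higher and 29.6% lower). The median absolute log2 difference was 0.61 for the 19 genes and 0.41 for all genes. A change of more than 1.5-fold was reached by 6 higher members (17.9% of all genes) and by 5 lower ones (14.7% of all genes).

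**Figure D1:**
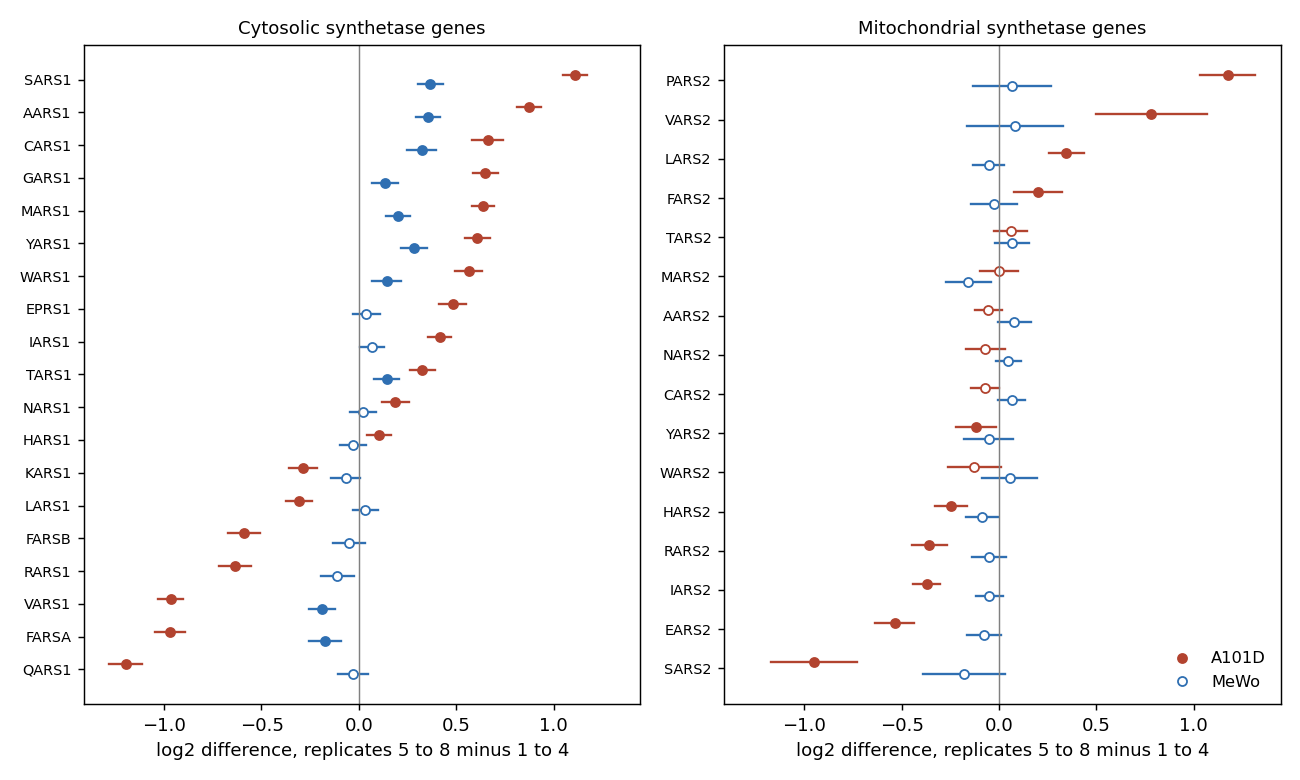
Log2 difference (replicates 5 to 8 minus 1 to 4) of each synthetase gene in A101D (red) and MeWo (blue), with 95% confidence intervals; filled points passed the limma test at an adjusted p of 0.05. The cytosolic genes of A101D run from -1.20 for QARS1 to 1.11 for SARS1, and for these genes every MeWo point lies nearer to 0. Over all genes the median absolute log2 difference was 0.41 in A101D and 0.12 in MeWo.

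The largest rise among the cytosolic genes was that of SARS1, which charges serine. Its level was 167, 166, 172 and 175 CPM in replicates 1 to 4 and 367, 377, 361 and 362 CPM in replicates 5 to 8 of A101D. Every library of the second set was above every library of the first, and the rise was 2.16-fold (log2 difference 1.11 ± 0.03 SE, adjusted p = 5.58e-29, limma). AARS1, the alanyl enzyme, rose 1.83-fold, CARS1 (cysteinyl) 1.58-fold, YARS1 (tyrosyl) 1.52-fold and WARS1 (tryptophanyl) 1.48-fold. EPRS1, a single protein that charges both glutamate and proline, rose 1.40-fold, IARS1 (isoleucyl) 1.33-fold and TARS1 (threonyl) 1.25-fold.

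MARS1 charges methionine, the amino acid that the study's media replace. It stood at 398, 411, 407 and 395 CPM in replicates 1 to 4 and at 647, 636, 622 and 605 CPM in replicates 5 to 8 of A101D. The sets did not overlap, and MARS1 rose 1.56-fold (log2 difference 0.64 ± 0.03 SE, adjusted p = 1.89e-22, limma). Its exons share 355 bases (5.05% of its exon length) with DDIT3 and 519 with ARHGAP9, both on the opposite strand, and the strand setting of the counting is not given in the sources used here. DDIT3 itself was higher by 31.7 CPM, against 225 CPM for MARS1. GARS1, which serves both compartments, stood at 455, 495, 495 and 461 CPM in the first set and 724, 757, 737 and 766 CPM in the second. It rose 1.57-fold without overlap (log2 difference 0.65 ± 0.03 SE, adjusted p = 3.56e-21, limma).

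The largest fall was that of QARS1, the glutaminyl enzyme. Its 4 libraries of replicates 1 to 4 in A101D gave 268, 266, 254 and 249 CPM, and those of replicates 5 to 8 gave 104, 109, 114 and 126 CPM. No library of the second set reached the lowest of the first, and QARS1 was 2.29-fold lower (log2 difference -1.20 ± 0.04 SE, adjusted p = 7.3e-25, limma). FARSA, the catalytic subunit of the phenylalanyl enzyme, went from 286, 276, 271 and 279 CPM to 135, 142, 143 and 148 CPM. It fell 1.96-fold (log2 difference -0.97 ± 0.04 SE, adjusted p = 1.15e-23, limma), and its partner subunit FARSB fell 1.51-fold. VARS1, the valyl enzyme, had 538, 522, 515 and 518 CPM in the first set and 254, 272, 270.4 and 276 CPM in the second, again without overlap. The fall was 1.95-fold (log2 difference -0.97 ± 0.03 SE, adjusted p = 1.3e-26, limma). RARS1 (arginyl) fell 1.55-fold and LARS1 (leucyl) 1.24-fold.

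KARS1, the other gene that serves both compartments, moved against GARS1. It had 227, 243, 228 and 220.4 CPM in replicates 1 to 4 of A101D and 180.2, 189, 187 and 196 CPM in replicates 5 to 8, and fell 1.22-fold (log2 difference -0.29 ± 0.04 SE, adjusted p = 4.48e-09, limma). The smallest differences in the set were those of HARS1 and NARS1. HARS1, the histidyl enzyme, had 165, 163, 167 and 161 CPM against 171, 179.9, 175 and 177 CPM. The sets did not overlap, but the rise of 1.07-fold (log2 difference 0.10 ± 0.03 SE, adjusted p = 0.00351, limma) was not called when the TMM factors were taken over all genes with a count (log2 difference 0.04, adjusted p = 0.277, limma) or when low counts were not filtered (log2 difference 0.04, adjusted p = 0.136, limma). NARS1, the asparaginyl enzyme, had 295, 332, 301 and 303 CPM against 335, 354, 344 and 365 CPM and rose 1.14-fold (log2 difference 0.19 ± 0.03 SE, adjusted p = 7.83e-06, limma). Its lowest library of the second set lay just above the highest of the first.

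**Figure D2:**
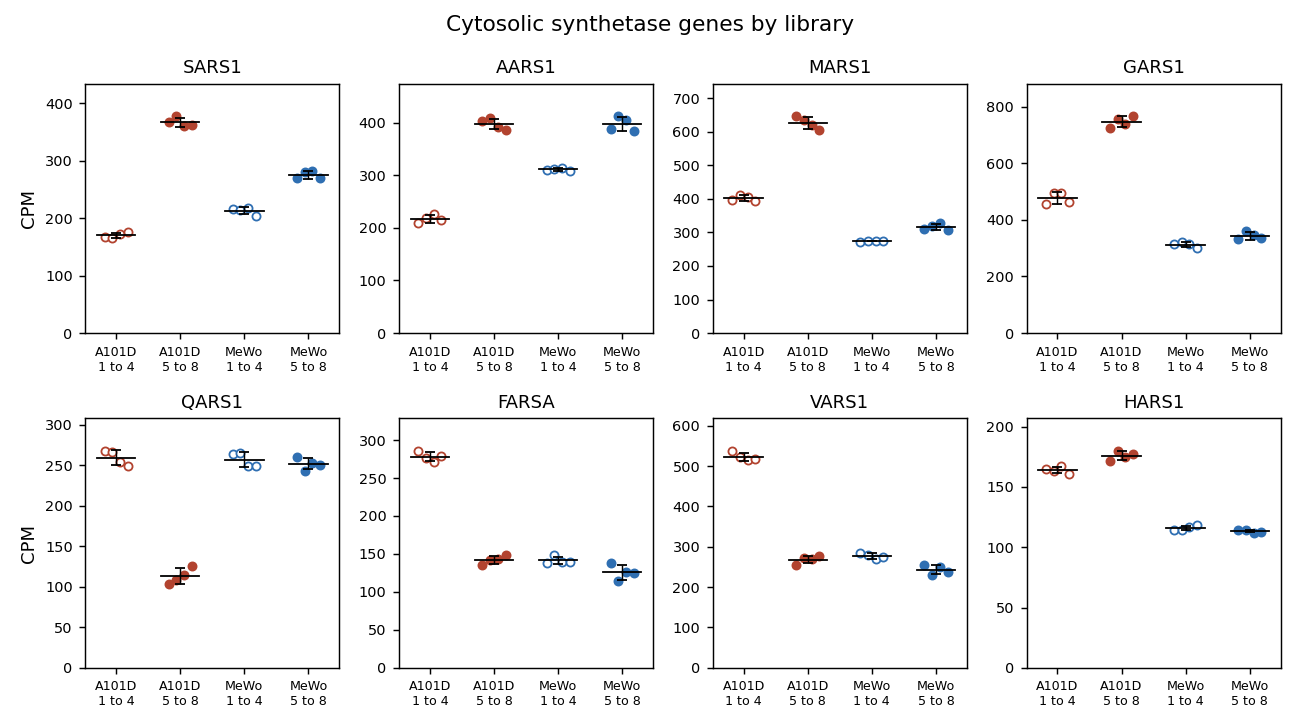
CPM of 8 cytosolic synthetase genes in each library (points), by line and replicate set, with the mean (line) and SD (bar) of 4 libraries. SARS1, AARS1, MARS1 and GARS1 are higher in replicates 5 to 8 of A101D, QARS1, FARSA and VARS1 are lower, and HARS1 moves little.

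Within the cytosolic set, the directions were mixed in each group of enzymes. Of the 7 members of the multisynthetase complex, 3 rose (EPRS1, IARS1, MARS1) and 4 fell (KARS1, LARS1, QARS1, RARS1) in A101D. Of the 12 free enzymes, 9 rose and 3 fell. Class I and class II enzymes, which differ in the fold of their catalytic domain, gave 6 higher and 4 lower of 10, and 6 higher and 3 lower of 9. Among all genes 33.2% were called higher and 32.4% lower. The groups of enzymes were not tested against each other or against all genes.

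The mitochondrial set moved less in A101D. Of its 16 genes, 10 passed the same test, 4 higher and 6 lower, a share close to the 65.6% of all genes. The median absolute log2 difference was 0.22, against 0.41 for all genes. This count depends on the genes over which the TMM factors are computed. With factors over all genes with a count, the version fitted first, 14 passed, 4 higher and 10 lower. In that version 65.3% of all genes passed, 29.6% higher and 35.8% lower. The 4 genes gained in that version were AARS2, CARS2, NARS2 and WARS2, with log2 differences of -0.11, -0.13, -0.13 and -0.19. TARS2 and MARS2 were called in neither. YARS2, the tyrosyl enzyme, was lower by the smallest margin of the 10 (log2 difference -0.12 ± 0.05 SE, adjusted p = 0.0346, limma). It lost its call when any of A101D replicates 2 to 8 or of MeWo replicates 1 to 3 was left out (adjusted p from 0.0508 to 0.120, limma). The call was also lost with median-of-ratios factors (adjusted p = 0.0863), upper-quartile factors (adjusted p = 0.474) and total counts (adjusted p = 0.771) in limma. A filter at 1 CPM (adjusted p = 0.0653, limma) and limma-trend (adjusted p = 0.0559) lost it too.

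PARS2, the mitochondrial prolyl enzyme, had the largest rise. It went from 11.0, 11.1, 9.82 and 10.6 CPM to 26.7, 24.5, 24.8 and 20.6 CPM in A101D. Every library of the second set was above the first, a rise of 2.26-fold (log2 difference 1.17 ± 0.07 SE, adjusted p = 4.37e-18, limma). EARS2, which charges glutamate and begins the mitochondrial route to glutaminyl-tRNA, had 47.4, 50.2, 46.6 and 45.8 CPM in replicates 1 to 4 and 29.8, 33.5, 31.1 and 36.7 CPM in replicates 5 to 8. The sets did not overlap and EARS2 fell 1.45-fold (log2 difference -0.54 ± 0.05 SE, adjusted p = 1.42e-12, limma). LARS2 rose 1.27-fold. FARS2 rose 1.15-fold, a call lost without the low-count filter (log2 difference 0.14, adjusted p = 0.125, limma) and with upper-quartile factors over all genes (log2 difference 0.10, adjusted p = 0.185, limma), while IARS2 fell 1.29-fold and RARS2 1.28-fold.

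SARS2 and VARS2, the mitochondrial seryl and valyl enzymes, were the lowest of all 35 genes per kilobase in every group, and their exons overlap other genes on the same strand. An annotated gene covers 46.2% of the exon length of SARS2, and GTF2H4 covers 22.0% of that of VARS2. On the opposite strand, MRPS12 covers 10.8% of that of SARS2. Its means were 92.0 CPM in replicates 1 to 4 and 135 CPM in replicates 5 to 8 of A101D. The part of this overlap in the SARS2 values was not tested. How reads of shared exons were assigned is not given in the sources used here, so both levels are uncertain. SARS2 had 6.32, 6.05, 6.48 and 5.84 CPM in the first set and 3.33, 2.76, 3.26 and 3.44 CPM in the second set of A101D. It fell 1.94-fold without overlap (log2 difference -0.95 ± 0.11 SE, adjusted p = 5.11e-10, limma). VARS2 had 1.62, 1.72, 1.81 and 2.31 CPM against 3.02, 3.16, 3.21 and 3.35 CPM and rose 1.72-fold, also without overlap (log2 difference 0.78 ± 0.14 SE, adjusted p = 6.24e-06, limma).

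MARS2, the mitochondrial methionyl enzyme, showed the smallest difference. It had 45.7, 44.7, 39.3 and 43.7 CPM in replicates 1 to 4 and 43.0, 45.2, 44.1 and 41.1 CPM in replicates 5 to 8 of A101D. The sets overlapped (log2 difference 0.00, 95% interval -0.10 to 0.09, adjusted p = 0.974, limma), while MARS1 rose. AARS2, the mitochondrial alanyl enzyme, had 171, 162, 162 and 162 CPM against 159, 159, 157 and 157 CPM. Its libraries did not overlap, but the difference did not pass the test (log2 difference -0.06 ± 0.03 SE, adjusted p = 0.162, limma). HARS2, which lies head to head with HARS1 and shares 437 exonic bases with it on the opposite strand, had 61.3, 65.8, 65.5 and 60.8 CPM against 49.8, 54.7, 53.5 and 55.2 CPM. It fell 1.19-fold without overlap (log2 difference -0.25 ± 0.04 SE, adjusted p = 8.83e-07, limma).

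**Figure D3:**
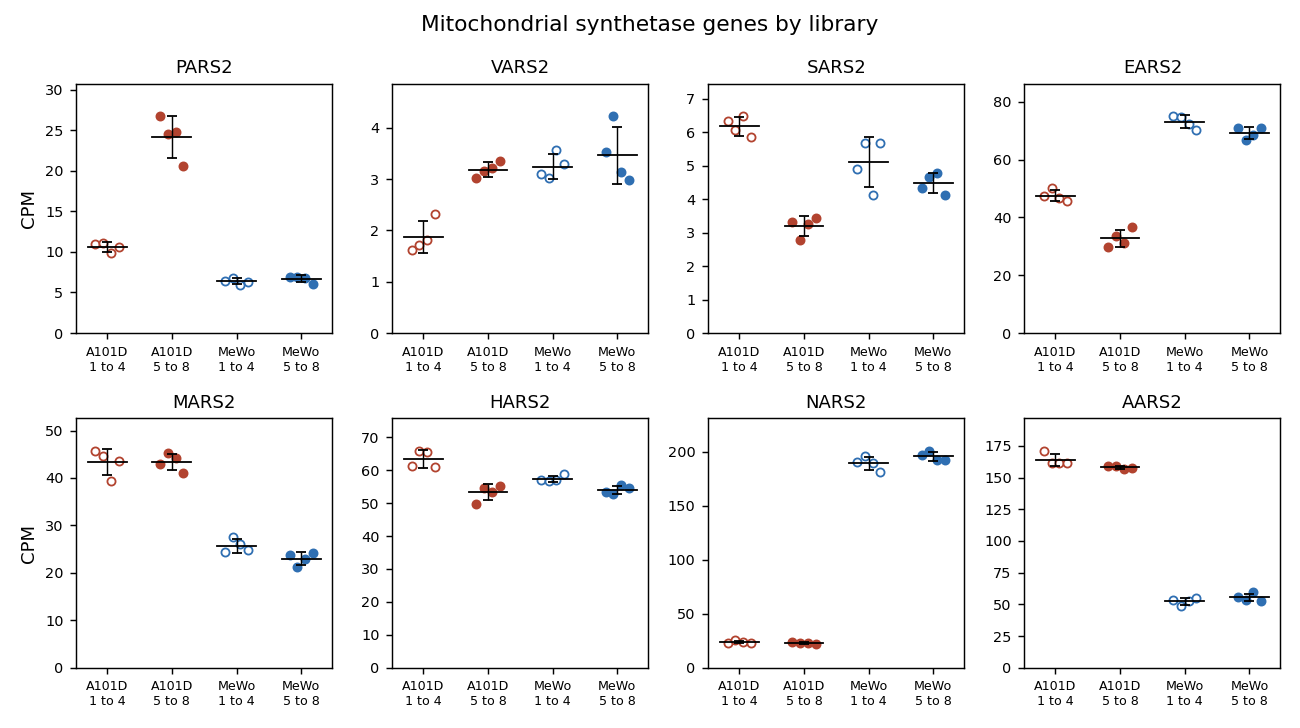
CPM of 8 mitochondrial synthetase genes in each library (points), by line and replicate set, with the mean (line) and SD (bar) of 4 libraries. PARS2 and VARS2 are higher and SARS2 and EARS2 lower in replicates 5 to 8 of A101D, MARS2 is level, and NARS2 and AARS2 separate the lines.

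Matching each mitochondrial gene to its cytosolic partner gave 17 pairings, with EPRS1 matched to both EARS2 and PARS2, and both FARSA and FARSB matched to FARS2. In 11 pairings both genes passed the test, 9 in opposite directions and 2 in the same direction. With 65.6% of all genes called in A101D, about evenly in both directions, nothing particular to these pairings is read from the count. The 9 were SARS1 with SARS2, EPRS1 with EARS2, IARS1 with IARS2, HARS1 with HARS2 and YARS1 with YARS2 (cytosolic higher), and VARS1 with VARS2, LARS1 with LARS2 and FARSA and FARSB with FARS2 (cytosolic lower). The 2 in the same direction were EPRS1 with PARS2 and RARS1 with RARS2. Over the other settings tried, opposite pairings numbered 8 to 12 and same-direction pairings 2 or 3. The calls of HARS1, FARS2 and YARS2 were each lost in some of these settings. The pairing was examined after the values had been seen, and some pairings share a gene.

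In MeWo the same sets of numbers differed less. Of the 19 cytosolic genes, 10 passed the test, 8 higher and 2 lower in replicates 5 to 8, where 13.6% of all genes passed, 6.16% higher and 7.45% lower. The libraries of the sets did not overlap for 8 cytosolic genes higher and 3 lower, against 7.81% and 8.79% of all genes (16.6% together). No cytosolic or mitochondrial member was called beyond 1.5-fold in MeWo, as 0.867% of all genes were upwards and 0.566% downwards. SARS1 had 216, 214, 218 and 205 CPM in replicates 1 to 4 and 269, 279.7, 282 and 269.7 CPM in replicates 5 to 8, and rose 1.29-fold without overlap (log2 difference 0.37 ± 0.03 SE, adjusted p = 5.49e-11, limma). AARS1 rose 1.28-fold, CARS1 1.25-fold and YARS1 1.22-fold. MARS1 had 273, 275, 276 and 275 CPM against 311, 319, 327 and 307 CPM, and GARS1 had 315, 320.1, 313 and 301 CPM against 331, 362, 346 and 334 CPM. Both rose without overlap, MARS1 1.15-fold (log2 difference 0.20 ± 0.03 SE, adjusted p = 7.81e-06) and GARS1 1.10-fold (log2 difference 0.14 ± 0.03 SE, adjusted p = 0.00477) by limma. The call of GARS1 was lost without MeWo replicate 4 (log2 difference 0.09, adjusted p = 0.0568, limma). It was also lost without the low-count filter (adjusted p = 0.175, limma) and with upper-quartile factors over all genes (adjusted p = 0.356, limma). With those factors 5 cytosolic genes were higher and 3 lower, where 2.93% of all genes were higher and 12.5% lower.

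TARS1 (log2 difference 0.14) and WARS1 (log2 difference 0.14) also rose in MeWo. TARS1 did not pass without MeWo replicate 3 (adjusted p = 0.0507, limma). WARS1 did not pass without replicate 3 (adjusted p = 0.0735) or 4 (adjusted p = 0.0627), or without the low-count filter (adjusted p = 0.133, limma). With upper-quartile factors over all genes neither TARS1 (adjusted p = 0.307) nor WARS1 (adjusted p = 0.315) passed by limma. The 2 genes that fell were VARS1, with 285, 279, 270.0 and 275 CPM against 255, 231, 251 and 238 CPM (log2 difference -0.19 ± 0.03 SE, adjusted p = 0.000103, limma), and FARSA, with 138, 149, 139 and 139 CPM against 138, 114, 126 and 125 CPM (log2 difference -0.18 ± 0.04 SE, adjusted p = 0.00246, limma). QARS1, the gene that fell most in A101D, had 264, 266, 249 and 249 CPM in replicates 1 to 4 and 260.4, 244, 253 and 251 CPM in replicates 5 to 8 of MeWo. These overlapped (log2 difference -0.03 ± 0.04 SE, adjusted p = 0.703, 95% interval -0.11 to 0.05, limma). KARS1 (206, 210.1, 200.3 and 188 CPM against 199.9, 184, 191 and 192 CPM), HARS1 (114, 114, 116 and 118 CPM against 114, 115, 112 and 113 CPM) and NARS1 (373, 386, 369 and 354 CPM against 374, 385, 368 and 375 CPM) overlapped as well and did not pass.

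None of the 16 mitochondrial genes passed the test in MeWo (limma-voom), 2 had an unadjusted p under 0.05, and limma-trend called 1. That 1 was MARS2, with 24.4, 27.7, 26.0 and 24.8 CPM in replicates 1 to 4 and 23.8, 21.2, 22.8 and 24.3 CPM in replicates 5 to 8. Its libraries did not overlap, and its adjusted p lay just above the threshold (log2 difference -0.16 ± 0.06 SE, adjusted p = 0.0565, limma). PARS2 had 6.44, 6.76, 5.88 and 6.35 CPM against 6.94, 6.91, 6.83 and 6.06 CPM, and EARS2 had 75.1, 74.7, 72.3 and 70.4 CPM against 70.9, 66.7, 68.7 and 70.8 CPM. Neither passed, and the PARS2 sets and the EARS2 sets overlapped. HARS2 had 56.9, 56.8, 57.0 and 58.8 CPM against 53.4, 52.7, 55.4 and 54.4 CPM, SARS2 4.89, 5.68, 4.13 and 5.69 CPM against 4.33, 4.64, 4.79 and 4.14 CPM, and VARS2 3.11, 3.02, 3.56 and 3.29 CPM against 3.52, 4.22, 3.13 and 2.98 CPM, and none of these passed. The HARS2 libraries of the sets did not overlap, and those of SARS2 and VARS2 did.

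All 10 cytosolic genes called in MeWo were called in A101D in the same direction. Across the 19 cytosolic genes, the differences of the lines had a Pearson r of 0.87 and a Spearman rho of 0.91. Across the 16 mitochondrial genes both were 0.59. These describe genes that share the libraries of each line, and neither was computed over all genes. The difference between the lines was tested directly. It passed for all 19 cytosolic genes and for 11 of 16 mitochondrial genes, against 49.1% of all genes (25.9% higher and 23.2% lower in MeWo relative to A101D). All 19 cytosolic differences were smaller in absolute size in MeWo, and so were 13 of the 16 mitochondrial ones. Over all genes the median absolute log2 difference was 0.41 in A101D and 0.12 in MeWo, so this is not particular to the synthetases. With the TMM factors over all genes with a count, 17 cytosolic and 11 mitochondrial genes passed, against 48.5% of all genes. The largest gaps were those of QARS1 (log2 difference 1.17 ± 0.06 SE, adjusted p = 1.04e-19), PARS2 (log2 difference -1.11 ± 0.12 SE, adjusted p = 4.47e-10), FARSA (log2 difference 0.79 ± 0.06 SE, adjusted p = 2.83e-15) and VARS1 (log2 difference 0.78 ± 0.05 SE, adjusted p = 9.95e-18), as the MeWo difference minus that of A101D in limma. For MARS2 the gap did not pass (log2 difference -0.16 ± 0.07 SE, adjusted p = 0.0781, limma), but it passed with median-of-ratios factors (adjusted p = 0.0297), upper-quartile factors (adjusted p = 0.0122), total counts (adjusted p = 0.0127) and a filter at 1 CPM (adjusted p = 0.0389), and without A101D replicate 1 or 8 or MeWo replicate 1, 4 or 8.

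Summed over the set and divided by exon length, the cytosolic genes gave 1061 ± 26.4 CPM per kilobase (SD, n = 4) in replicates 1 to 4 of A101D and 1184 ± 20.6 in replicates 5 to 8. The mitochondrial sum went the other way, from 214 ± 5.72 to 196 ± 1.01. Single abundant genes weigh heavily in both sums. In the mitochondrial one IARS2 fell from 60.3 to 46.6 CPM per kilobase, and PARS2 rose from 4.52 to 10.3. In the cytosolic one GARS1, which serves both compartments, rose from 115 to 180, and FARSA fell from 114 to 58.3. The ratio of the sums, which does not depend on library scaling, was 4.83, 4.95, 5.06 and 4.95 in the first set and 5.96, 6.09, 6.01 and 6.15 in the second. In MeWo the ratio was 3.81, 3.79, 3.75 and 3.78 in replicates 1 to 4 and 4.03, 4.04, 4.03 and 4.06 in replicates 5 to 8. In both lines the ratio of every library of replicates 5 to 8 was above every library of replicates 1 to 4, and every A101D ratio was above every MeWo ratio. The gap between the lines depends strongly on 1 mitochondrial gene, NARS2, which was 8.22-fold higher in MeWo over all replicates. Per kilobase, NARS2 was the highest mitochondrial gene in both sets of MeWo. In replicates 1 to 4 of A101D it had 7.62 CPM per kilobase. The ratio was not computed without NARS2, so the gap is not read as a difference of the whole sets. No test is given for these sums, since members were chosen with earlier results known.

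**Figure D4:**
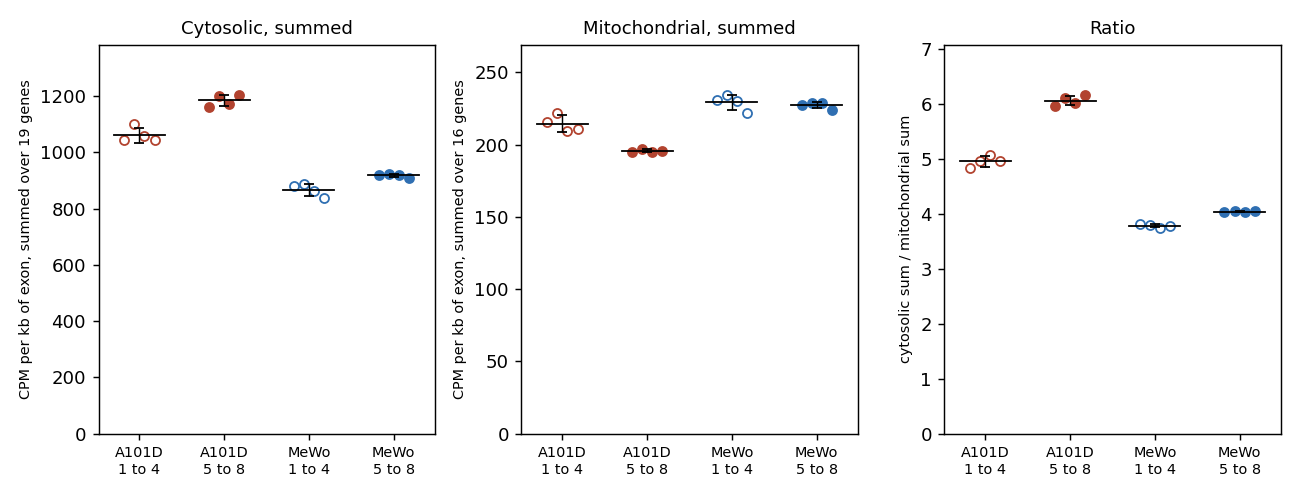
Summed CPM per kilobase of the 19 cytosolic and the 16 mitochondrial genes and the ratio of the sums, by library (points), with the mean (line) and SD (bar) of 4 libraries. The ratio is higher in replicates 5 to 8 of both lines, at 6.05 against 4.95 in A101D and 4.04 against 3.78 in MeWo.

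Per kilobase, the cytosolic genes were the more abundant set. Their median was 49.7 CPM per kilobase in replicates 1 to 4 of A101D, against 7.95 for the mitochondrial genes, and 45.6 against 8.88 in those of MeWo. GARS1 was highest in both sets of A101D (115 and 180 CPM per kilobase), and NARS1 in both sets of MeWo (90.5 and 91.8). In replicates 1 to 4 of A101D, FARSA stood next to GARS1 at 114 CPM per kilobase.

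Between the lines, nearly all members differed, as did nearly all genes. Over all replicates 17 of 19 cytosolic genes passed, 4 higher and 13 lower in MeWo, and 15 of 16 mitochondrial genes, 8 higher and 7 lower, where 86.9% of all genes passed, 41.7% higher and 45.2% lower. No called direction turned under the other scalings over the tested genes, a choice of genes made after results had been seen. With upper-quartile factors over all genes with a count, as in the first version, the cytosolic split became 9 higher and 5 lower. The mitochondrial split became 12 higher and 4 lower. With those factors 59.2% of all genes were called higher and 30.2% lower, so the members moved with all genes. In a fit with 1 mean for each line, 12 cytosolic genes (2 higher, 10 lower) and 13 mitochondrial genes (7 higher, 6 lower) passed. AARS1, CARS1, FARSB, KARS1, TARS1, HARS2 and IARS2 lost their calls in it. The share of all genes was not computed for that fit, so its counts are not read as particular to the members. A101D and MeWo libraries were fully apart for 6 cytosolic genes, all lower in MeWo, and for 9 mitochondrial genes, 4 higher and 5 lower, against 55.2% of all genes (25.1% higher and 30.1% lower). Within replicates 1 to 4, 17 cytosolic genes (4 higher, 13 lower) and 15 mitochondrial genes (6 higher, 9 lower) passed, against 79.4% of all genes (37.1% higher, 42.3% lower). Within replicates 5 to 8, 15 cytosolic genes (3 higher, 12 lower) and 12 mitochondrial genes (7 higher, 5 lower) passed, against 84.2% of all genes (40.3% higher, 43.9% lower). With the upper-quartile factors over all genes these splits became 11 higher and 4 lower cytosolic and 10 and 4 mitochondrial in the first set. In the second they became 11 and 7 cytosolic and 12 and 4 mitochondrial. All genes then gave 55.2% higher and 27.4% lower in the first set, and 56.3% and 30.1% in the second.

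NARS2, the mitochondrial asparaginyl enzyme, showed the largest line difference of all 35. It had 23.4, 25.3, 24.1 and 23.3 CPM in replicates 1 to 4 of A101D and 23.8, 22.6, 22.5 and 22.5 CPM in replicates 5 to 8. In MeWo it had 191, 196, 189 and 181 CPM and 197, 201, 192 and 192 CPM. It was 8.22-fold higher in MeWo (log2 difference 3.04 ± 0.03 SE, adjusted p = 1.06e-45, limma), and the sets of numbers within each line overlapped. AARS2 was 2.99-fold lower in MeWo (log2 difference -1.58 ± 0.03 SE, adjusted p = 2.86e-37, limma), where it had 53.2, 48.8, 52.9 and 55.2 CPM in replicates 1 to 4 and 56.0, 53.7, 59.4 and 53.1 CPM in replicates 5 to 8. MARS2 was 1.79-fold lower in MeWo and EARS2 1.80-fold higher. Among cytosolic genes GARS1 (1.82-fold) and MARS1 (1.71-fold) were lower in MeWo by the most, without overlap in either case. These 6 genes kept their direction with the upper-quartile factors over all genes.

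Several line differences depended on the set of numbers. QARS1 did not differ beyond the spread in replicates 1 to 4 (log2 difference -0.01 ± 0.04 SE, adjusted p = 0.761, limma). It was 2.23-fold higher in MeWo in replicates 5 to 8 (log2 difference 1.16 ± 0.04 SE, adjusted p = 3.89e-25, limma). In replicates 1 to 4, upper-quartile factors over all genes gave QARS1 a log2 difference of 0.46 (adjusted p = 2.78e-11, limma). SARS1 was higher in MeWo in replicates 1 to 4 (log2 difference 0.33) and lower in replicates 5 to 8 (log2 difference -0.42). With upper-quartile factors over all genes, SARS1 was higher in MeWo in replicates 1 to 4 and its difference in replicates 5 to 8 turned to 0.0848 without passing (adjusted p = 0.0732, limma). AARS1 was higher in MeWo in the first set (log2 difference 0.52 ± 0.03 SE, adjusted p = 3.18e-18, limma) and did not differ beyond the spread in the second (log2 difference 0.00 ± 0.03 SE, adjusted p = 0.969, limma), where upper-quartile factors over all genes gave a log2 difference of 0.50 (adjusted p = 7.5e-15, limma).

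**Figure D5:**
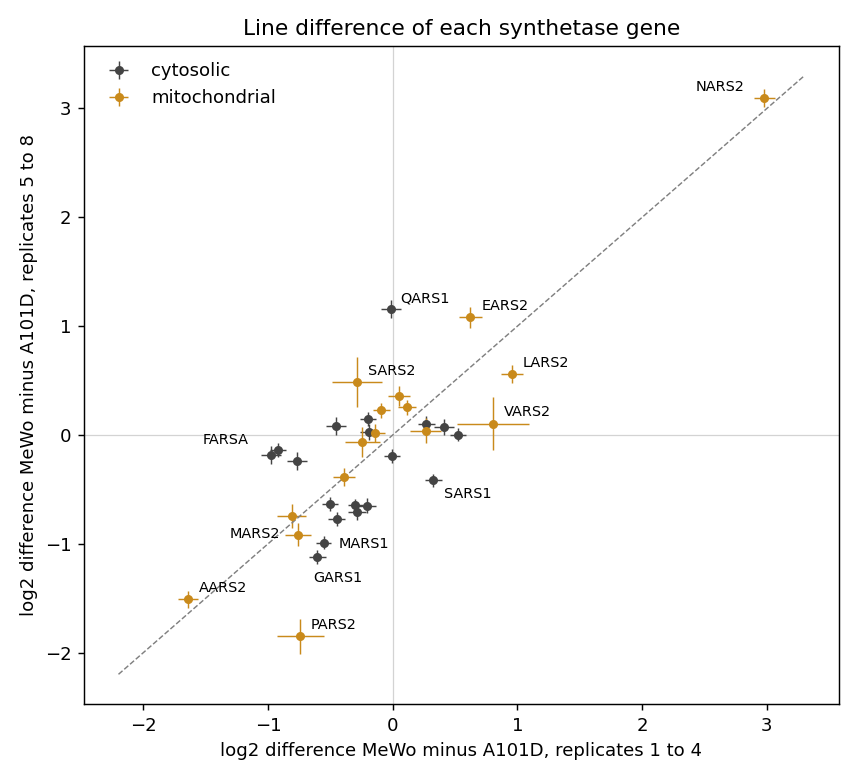
Log2 difference MeWo minus A101D of each synthetase gene in replicates 1 to 4 (horizontal) and 5 to 8 (vertical), with 95% confidence intervals; the dashed line marks equal differences. NARS2 and AARS2 lie near the dashed line, and QARS1 and PARS2 lie away from it.

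Other genes of the pathway are given by lists chosen for their function. Of 14 partners of the synthetases, 5 were higher and 6 lower in replicates 5 to 8 of A101D, where 33.2% of all genes were higher and 32.4% lower, so the share called was near that of all genes. The complex scaffolds AIMP2 (log2 difference -0.46) and EEF1E1 (-0.39) fell, and AIMP1 did not pass (-0.06). MTFMT, which formylates the mitochondrial initiator methionyl-tRNA, fell (-0.60). In the glutamine amidotransferase, GATB fell (-0.29), GATC rose (0.44) and QRSL1 did not pass (0.06). Of 12 mitochondrial translation factors, 3 were higher and 6 lower, against the same shares of all genes. In MeWo the partners gave 1 higher and 1 lower, and the translation factors 3 higher and 0 lower, where 6.16% of all genes were higher and 7.45% lower.

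The 21 genes of an amino acid response list, ATF4 and its textbook targets, gave 19 higher and 1 lower (ALDH18A1) in replicates 5 to 8 of A101D, where 33.2% of all genes were higher and 32.4% lower. ATF4 had 315, 315, 333 and 313 CPM in the first set and 778, 822, 799 and 808 CPM in the second, a 2.52-fold rise. ASNS, asparagine synthetase, had 2.14, 2.16, 2.24 and 2.43 CPM against 9.89, 9.58, 10.5 and 10.8 CPM and rose 4.52-fold. In MeWo 12 were higher and 1 lower, against 6.16% and 7.45% of all genes, with ATF4 up 1.66-fold, ASNS up 1.57-fold and ALDH18A1 again lower. The median log2 difference of the list was 1.64 in A101D and 0.21 in MeWo, against 0.33 and 0.04 for the cytosolic synthetases, -0.07 and -0.04 for the mitochondrial ones, and 0.01 and 0.00 for all genes. The part of this response in the synthetase differences was not tested.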

How the data were processed

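Total RNA was sequenced as 16 stranded libraries, 8 of each line. Per the submitters' processing notes, Trimmomatic 0.39-1, STAR 2.7.1a and featureCounts 2.0.0 were used with GRCh38. Which annotation release was used, and whether counting used strand, is not stated there. Per the file headers, reads were counted over exons. The deposited tables join the identifier and a whole-number count in each cell, an unusual unit (other) that was split before use.

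Of 60676 identifiers, 60357 had a symbol. Genes were kept with at least 0.298 CPM (10 counts at the median depth) in 4 libraries and 15 counts in all, which left 21569. TMM factors (trims of 30% and 5%) were computed over these genes. They had first been computed over all genes with a count, and this was changed after results had been seen. The change raised the cytosolic calls between the A101D sets from 18 to 19 and lowered the mitochondrial ones from 14 to 10. Of all genes, 65.3% were called before it and 65.6% after it. Differences were tested with limma 3.58.1 (voom, R 4.3.3) in 1 fit of all 16 libraries, with Benjamini-Hochberg adjustment over all genes tested and a threshold of 0.05. The code was tested on simulated data.

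The members, the lists and the split of replicate numbers were chosen with earlier results of these data known. Values in every library are given for MARS1, MARS2, GARS1, KARS1, QARS1, HARS1 and HARS2. They are also given, in each set, for the 4 genes with the largest and the 2 with the smallest difference between the A101D sets and the 2 with the largest line difference. AARS1, ATF4 and ASNS were named after their values were seen. Alternatives were other scalings, filters, thresholds, limma-trend, fits on fewer groups, a replicate block and leaving out each library.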

Additional observations from a re-analysis of the deposited data

Results flagged for a closer look

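In 11 of the 140 sets of 4 libraries checked, 1 library stood apart from the other 3 by more than Dixon's 95% critical value allows, judged by its gap as a share of the set's range. Chance flags about 1 in 20 sets, here 7. The libraries were those of CARS1 in MeWo replicate 8 (97.0 CPM, the others 103 to 104), FARSA in MeWo replicate 2 (149 CPM, the others 138 to 139), FARSB in MeWo replicate 4 (66.0 CPM, the others 72.2 to 73.2) and LARS1 in MeWo replicate 6 (254 CPM, the others 241 to 243) for the cytosolic genes. For the mitochondrial genes they were AARS2 in A101D replicate 1 (171 CPM, the others 162 to 162), CARS2 in MeWo replicate 6 (86.2 CPM, the others 90.4 to 91.0), HARS2 in MeWo replicate 4 (58.8 CPM, the others 56.8 to 57.0), IARS2 in A101D replicate 2 (270.5 CPM, the others 243 to 246), NARS2 in A101D replicate 5 (23.8 CPM, the others 22.5 to 22.6), PARS2 in MeWo replicate 8 (6.06 CPM, the others 6.83 to 6.94) and WARS2 in A101D replicate 3 (14.1 CPM, the others 16.4 to 16.6). No single library recurred in more than 2 of these sets.

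For 30 of the 35 members the difference between the replicate sets differed between the lines by the limma test of that difference itself (Benjamini-Hochberg adjusted p under 0.05). These were all 19 cytosolic genes and 11 of the 16 mitochondrial genes, where 49.1% of all genes passed. As log2 differences of MeWo minus those of A101D, the cytosolic values were AARS1 -0.52, CARS1 -0.34, EPRS1 -0.44, FARSA 0.79, FARSB 0.54, GARS1 -0.51, HARS1 -0.13, IARS1 -0.35, KARS1 0.22, LARS1 0.34, MARS1 -0.44, NARS1 -0.16, QARS1 1.17, RARS1 0.53, SARS1 -0.74, TARS1 -0.18, VARS1 0.78, WARS1 -0.42 and YARS1 -0.32. The mitochondrial values were AARS2 0.13, CARS2 0.14, EARS2 0.46, FARS2 -0.23, HARS2 0.16, IARS2 0.32, LARS2 -0.40, PARS2 -1.11, RARS2 0.31, SARS2 0.77 and VARS2 -0.70. Those of AARS2, CARS2 and HARS2 lost the call with median-of-ratios factors (adjusted p = 0.184, 0.129 and 0.0945), upper-quartile factors (0.284, 0.176 and 0.133) and total counts (0.325, 0.201 and 0.144), in that order of genes, and when any of several single libraries was left out.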

How the results depend on the processing

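The genes over which scaling factors are computed were changed after results had been seen. The first version took TMM factors over all genes with a count, and the version reported takes them over the genes tested. Under the first version the A101D sets gave 18 cytosolic (11 higher, 7 lower) and 14 mitochondrial calls (4 higher, 10 lower). Of all genes, 65.3% were then called (29.6% higher, 35.8% lower). The MeWo sets gave 11 and 1 (13.1% of all genes), and the lines over all replicates 18 and 14 (86.7% of all genes). None of 160 called differences turned. The choice made after seeing the data is thus that of the tested genes, for the reported factors and for the other scalings alike, and it followed a first version in which upper-quartile factors over all genes had moved the line differences. With those factors, 26 of 160 called differences turned, all between lines, as the median of all genes moved by 0.469 in replicates 1 to 4, 0.5 in replicates 5 to 8 and 0.484 over all replicates. The log2 differences (MeWo minus A101D) that turned, called or not, were, in replicates 1 to 4, EPRS1 0.26, FARSB 0.0107, IARS1 0.17, KARS1 0.28, LARS1 0.27, QARS1 0.46, TARS1 0.46, WARS1 0.18, YARS1 0.0185, HARS2 0.33, IARS2 0.38, SARS2 0.18, TARS2 0.0764 and WARS2 0.22. In replicates 5 to 8 they were FARSA 0.32, RARS1 0.26, SARS1 0.0848, TARS1 0.31, VARS1 0.36, TARS2 0.12 and WARS2 0.44. Over all replicates they were EPRS1 0.0554, FARSB 0.30, IARS1 0.0114, KARS1 0.40, LARS1 0.46, SARS1 0.44, TARS1 0.39, HARS2 0.42, TARS2 0.096 and WARS2 0.33. Of 5565 member values under all alternatives, 5315 kept direction and call, 135 lost the call, 84 gained it and 31 turned.

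The count of mitochondrial calls between the MeWo sets was 1 with median-of-ratios factors, a filter at 1 CPM, limma-trend, the MeWo libraries alone or TMM over all genes, 2 with total counts only or upper-quartile factors over all genes, and 0 to 2 when 1 library was left out. At a threshold of 0.01, 7 mitochondrial genes differed between the lines in their set difference. The share of all genes was not computed at that threshold. The summed cytosolic log2 difference in A101D was 0.24 with upper-quartile factors, 0.26 with total counts, 0.10 with TMM and 0.0618 with upper-quartile factors over all genes, and 0.33 as the median of members. In MeWo it was 0.12 with total counts, 0.0185 with upper-quartile factors over all genes and 0.0379 as the median. The mitochondrial sum in A101D was -0.0542, -0.0299, -0.19, -0.23 and -0.0728 in the same order as the cytosolic one. In MeWo it turned to 0.0041 with upper-quartile factors and 0.024 with total counts, and was -0.0768 with upper-quartile factors over all genes. Only the scaling or the summary was changed in each of these, and no further cause was tested.

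A fit with the replicate number as a block gave 17 cytosolic and 15 mitochondrial calls between the lines in replicates 1 to 4. It gave 16 and 12 in replicates 5 to 8, 17 and 15 over all replicates, and 19 and 11 for the difference between set differences. The share of all genes was not computed for that fit. In the reported fit, without the block, 79.4%, 84.2%, 86.9% and 49.1% of all genes passed, in the same order. Same-numbered libraries did not deviate together (r from -0.10 to 0.21, with 2 numbers matching their own best), so the numbers were not read as pairs. The smallest member count, 51, limits VARS2 most.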
